A study of Mus musculus with 2 samples.

Results

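Chromatin remodeller and bromodomain genes were described on 2 arrays of sorted mouse bone marrow cells, 1 after decitabine (DAC) and 1 after phosphate-buffered saline (PBS). They were chosen by gene name: names beginning with Smarc or Ino80, names made of Chd, Brd or Arid and a digit, and Pbrm1, Atrx, Baz1a, Baz1b, Baz2a and Baz2b, with 1 Arid gene set aside. This gave 50 genes, read by 93 probes, of 34843 gene or transcript names on the array, and all 50 names were current symbols. The cells were LSK cells, which lack lineage markers and carry Sca-1 and c-Kit, the marrow fraction that holds stem cells and multipotent progenitors. They came from C57BL/6 secondary recipients of a transplanted myelodysplastic syndrome (MDS) with the genotype Tet2KD/KD Ezh2Δ/Δ. The recipients had been given DAC or PBS, and both samples were taken 10 weeks after transplantation. The source labels add 7w DAC and 7w PBS, without saying whether these are weeks of treatment or weeks after it. Both alleles were thus shared by DAC and PBS cells. Recipient age, DAC dose, the driver of the Ezh2 deletion and the number of mice behind an array are not stated in the labels or file headers.

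Remodellers are complexes built around an ATPase of the SNF2 family, which uses ATP to slide, evict or exchange nucleosomes. Their families (SWI/SNF, also called BAF, then ISWI, CHD and INO80) differ in the subunits around the ATPase, and bromodomains are protein modules that bind acetylated lysines on histone tails. BAF subunits are recurrently mutated in cancer, ATRX mutations occur in human MDS with acquired alpha-thalassaemia, and BET bromodomain proteins are drug targets in myeloid leukaemia. Decitabine is a cytosine analogue that traps DNA methyltransferases and so lowers DNA methylation.

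Each gene was read by 60-base probes. The following 6 are shown because the differences below turn on them and because they lie away from the last probe of the gene or draw their bases from a longer stretch of the genome. Positions are in mm9, with the strand given by the array files, and the sequences are printed as those files hold them.
Arid1b, chr17:5321342-5321401, plus strand: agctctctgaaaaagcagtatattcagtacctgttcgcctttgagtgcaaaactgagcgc
Pbrm1, chr14:31840656-31840715, plus strand: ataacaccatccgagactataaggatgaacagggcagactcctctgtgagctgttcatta
Chd6, chr2:160818015-160834146, minus strand: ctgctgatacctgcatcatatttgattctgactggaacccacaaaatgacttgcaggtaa
Ino80, chr2:119232564-119232623, minus strand: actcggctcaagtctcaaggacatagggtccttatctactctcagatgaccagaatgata
Atrx, chrX:103079652-103079711, minus strand: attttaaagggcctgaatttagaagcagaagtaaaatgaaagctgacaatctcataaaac
Chd1, chr17:15901939-15903307, plus strand: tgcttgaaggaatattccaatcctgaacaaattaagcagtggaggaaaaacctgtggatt

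More of these genes were higher than lower on the DAC array. Both arrays detected 46 of the 50 genes, while 52.3% of all genes on the array were so measured. Of these 46, 11 exceeded 2-fold on the higher side, 1 did so on the lower side and 34 lay between. The same thresholds held 10.0% of all 18222 measured genes on the higher side and 6.85% on the lower side, against 23.9% and 2.17% of the chromatin genes. Highest were the AT-rich interaction domain gene Arid5b (5.33-fold) and Atrx (3.72-fold), followed by Arid3b, the BAF ATPase gene Smarca2, the PBAF subunit gene Pbrm1 and Chd6. Lowest was Chd1l, a remodeller gene of DNA repair, by 2.15-fold. The median log2 difference (DAC minus PBS) was 0.46 over the 46 genes and 0.02 over all measured genes, and 32 of the 46 lay above 0, against 51.4% of all. With 1 array per treatment there was no test, and no difference could be set against the spread between animals.

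Processing moved these counts. Correcting the background by normexp left 4 genes past 2-fold on the higher side and 0 on the lower, against 3.97% and 4.14% of all genes. Quantile and spike-in scaling each gave 7 higher and 3 lower, or 70.0% higher among those past 2-fold, against 91.7% as reported. The shares over all genes shifted as well: under quantile scaling 7.39% of them were past 2-fold higher and 10.1% lower, and under spike-in scaling 6.14% higher and 12.9% lower. The higher genes were dim or of middle signal: 5 of 16 in the low signal range, 6 of 15 in the middle range and 0 of 15 in the high range, against 14.6%, 13.1% and 3.65% of all genes there. Among all 7028 genes inside the middle part of the chromatin genes' signals, 13.7% were past 2-fold higher and 8.85% lower. The DAC array was also the brighter one, with 56.8% of its probes well above background, against 48.5% on the PBS array, and the part of this in the counts was not tested.

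Signals are given as scaled log2 signal, where 0 is the 75th percentile of each array over the probes detected on both. Levels of different genes come from different probes and were not compared, and the marker sums below are dominated by their brightest probes. Error could be estimated from the scatter of repeated spots, whose SD for a log2 difference was 0.24 for dim probes, 0.14 for probes of middle signal and 0.09 for bright ones, and it covers neither animals nor amplification. Of the 46 genes, 26 were higher and 10 lower by more than 2 such SDs, a size that 63.7% of all measured genes passed. Bulk values cannot tell fewer cells of a type from less RNA per cell. Of the 8 LSK markers 7 were measured (Slamf1 was above background on neither array), and the log2 of the summed scaled level of all 8 came to 4.80 for DAC and 4.78 for PBS. On the same scale the B cell markers (3 of 4 measured) stood at 2.36 after DAC and 1.70 after PBS, and the T cell markers (2 of 4) at −0.09 after DAC and −0.49 after PBS. The neutrophil and monocyte markers (5 of 5) stood at 5.91 after DAC and 6.38 after PBS, a sum set mostly by Itgam (5.64 after DAC and 6.19 after PBS). Of the other 4, S100a8 had a difference of −0.49, Ly6g 0.07, Csf1r 0.02 and S100a9 −0.01. The erythroid markers (3 of 4) stood at 0.92 after DAC and 1.44 after PBS. Cd3g, Cd8a and Ms4a1 were above background on neither array. The part of such cells in the differences below was not tested.

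**Figure D1:**
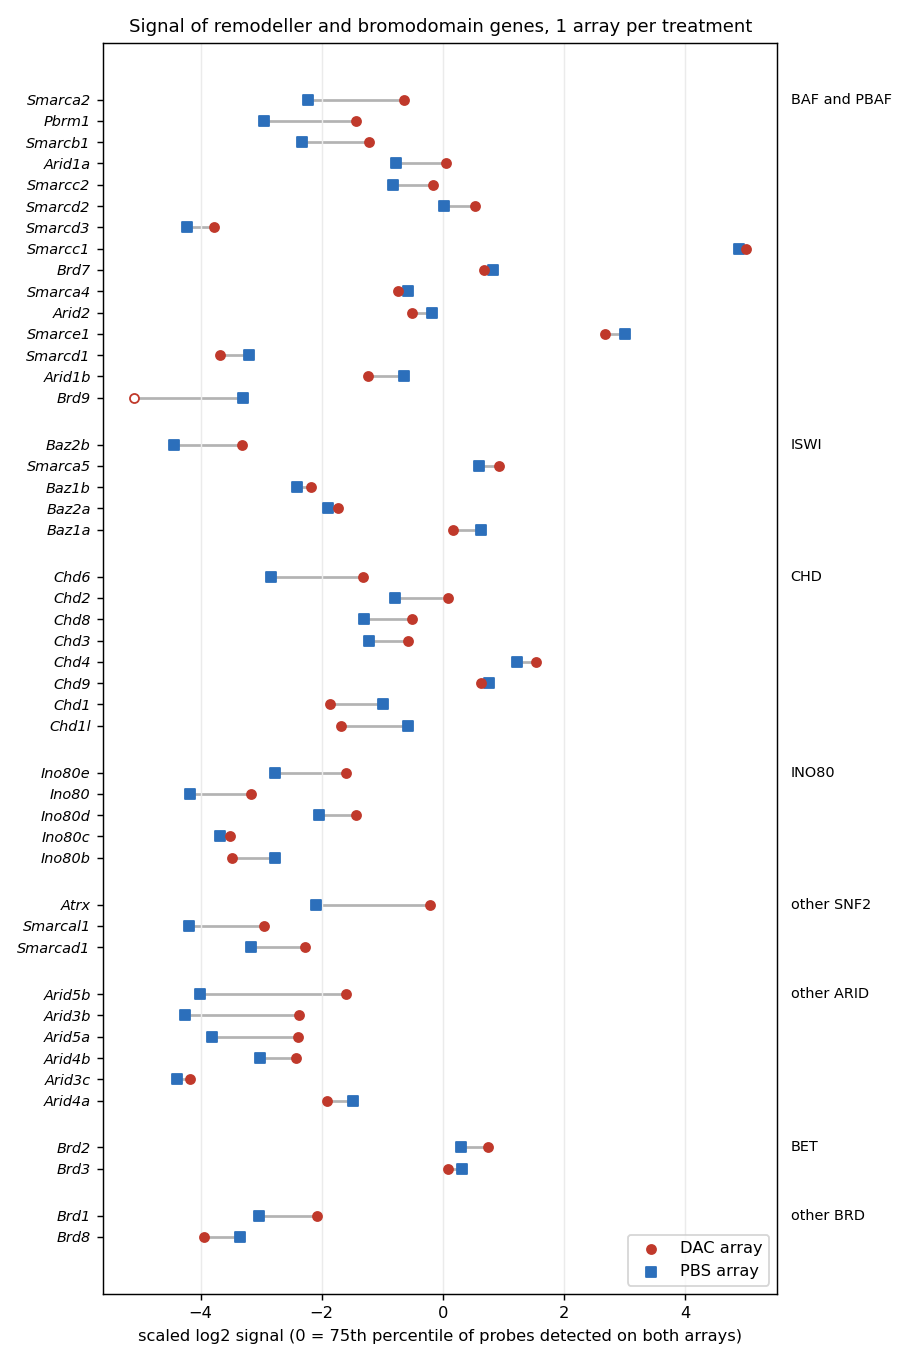
Scaled log2 signal (x axis, 0 is the 75th percentile of the probes detected on both arrays) of genes found on at least 1 array, on the DAC array (red circles) and the PBS array (blue squares), grouped by complex or family. Arid5b, Atrx and Arid3b show the widest gaps with the DAC array higher, and Brd9 (open circle: not well above background on the DAC array) the widest with it lower.

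In the SWI/SNF group, BAF and PBAF share a core and an ATPase and differ in their targeting subunits. Of 15 genes 14 were measured. On the DAC array 3 of them were past 2-fold higher and 0 lower, against 10.0% and 6.85% of all measured genes. The median difference of the 14 was 0.28. Counts in this and the following groups rest on few genes and are description only. The ATPases Smarca2 (BRM) and Smarca4 (BRG1), of which a complex holds one, had unlike differences. Smarca2 (NM_026003, chr19:26852751-26852810) had a scaled log2 signal of −0.65 after DAC and −2.23 after PBS, a difference of 1.58, which stayed between 1.19 and 1.47 under 8 other scalings and background settings. Smarca4 (NM_001174078, chr9:21507751-21507810) had −0.74 after DAC and −0.58 after PBS. Its difference was −0.16 on this probe and −0.07 on its second probe. Smarca2 was therefore past 2-fold, while the brightest probe of Smarca4 lay within 2 spot SDs of 0.

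The core subunit gene Smarcb1 (SNF5, chr10:75359522-75359581), a tumour suppressor of rhabdoid tumours, had −1.22 after DAC and −2.33 after PBS. The difference of 1.12 was below 1 under each of the 8 other scalings and background settings, at 0.80 to 0.97. The scaffold gene Smarcc2 (BAF170) had a difference of 0.66. Its paralogue Smarcc1 (BAF155) had 4 measured probes with differences of 0.12, −0.30, 0.17 and −1.70 in order from the 3′ end, and the sign of the first changed with the scaling. Among the BAF60 genes, Smarcd2 had a difference of 0.52, Smarcd3 one of 0.45 that turned negative under quantile scaling (−0.03) and without background subtraction (−0.01), and Smarcd1 one of −0.48. The HMG-box subunit gene Smarce1 (BAF57) had −0.34 on its brightest probe and 0.24 on the other. Core genes thus lay on both sides of 0 on their brightest probes. Of the lower ones, Smarcd1 lay within 2 spot SDs of 0 and Smarce1 had probes of opposite sign.

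Targeting subunits also lay on both sides. Pbrm1 (BAF180, NM_001081251), the bromodomain subunit of PBAF, had −1.44 after DAC and −2.96 after PBS on the probe printed above, a difference of 1.52. A second Pbrm1 probe reached detection with DAC but not with PBS, at least 4.61-fold higher, and the last of its probes on neither array. Arid2 (BAF200, chr15:96235327-96235386), another PBAF subunit gene, had −0.50 after DAC and −0.18 after PBS, a difference of −0.33, and a second probe gave 0.76. The PBAF bromodomain gene Brd7 had −0.14 on one probe and −0.42 on the other.

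Arid1a (BAF250a, chr4:133236274-133236333), which defines canonical BAF, had 0.05 after DAC and −0.78 after PBS. Its probes gave differences of 0.84 and 0.93. Its paralogue Arid1b (chr17:5343084-5343143) had −1.24 after DAC and −0.65 after PBS on its brightest probe, a difference of −0.59. The Arid1b probe printed above lay 21742 bases towards the 5′ end and had −0.72 after DAC and −3.20 after PBS, a difference of 2.48, and its remaining probe gave 0.26. No single direction can be given for Arid1b. Brd9 (NM_001024508, chr13:74098252-74098311), the bromodomain subunit of non-canonical BAF, was the only one of the 50 genes found on 1 array alone. Its DAC signal of −5.10 was not well above background, while the PBS array gave −3.29. The undetected DAC signal was 3.50-fold lower, which is a plain ratio and no lower bound. Detection on PBS alone was seen for 2.96% of all genes on the array, and detection on DAC alone for 9.53% of all genes and for 0 of the 50.

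**Figure D2:**
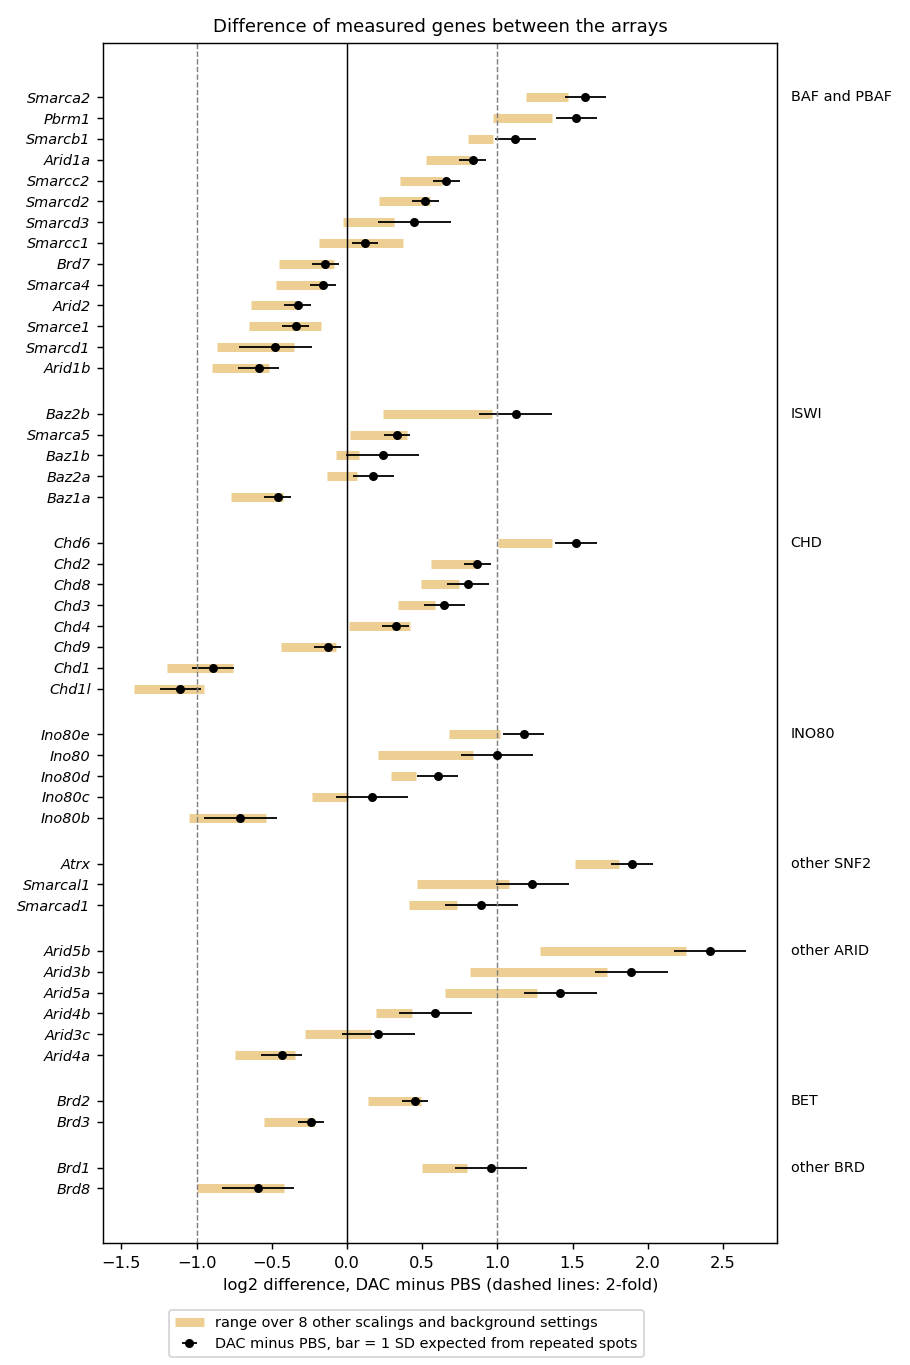
Log2 difference, DAC minus PBS (x axis), of genes measured on both arrays. Points are the reported values with 1 SD expected from repeated spots, yellow bars the range over 8 other scalings and background settings, and dashed lines 2-fold. Arid5b, Atrx, Smarca2 and Chd6 stay past 2-fold over the whole bar.

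ISWI remodellers space nucleosomes, and Smarca5 (SNF2H) and Smarca1 (SNF2L) are their ATPases. Of 6 genes 5 were measured, of which 1 was past 2-fold higher and 0 lower, against 10.0% and 6.85% of all measured genes. The median of the 5 was 0.24. Smarca5 (NM_053124, chr8:83223865-83223924) had 0.93 after DAC and 0.60 after PBS, a difference of 0.33. Smarca1 (chrX:45163131-45163190) was above background on neither array with any of its 3 probes. Baz2b, a bromodomain gene (chr2:59737449-59737508), had −3.32 after DAC and −4.44 after PBS, a difference of 1.12 that became 0.24 with normexp correction. Baz2a, whose product TIP5 pairs with SNF2H to silence ribosomal DNA, had a difference of 0.17, and Baz1b, which encodes the Williams syndrome transcription factor WSTF, one of 0.24. Baz2a turned negative under 3 of the 6 other scalings, at −0.13 to −0.03, and Baz1b under spike-in scaling alone (−0.07). Baz1a (ACF1) had −0.46 on its brightest probe and 0.99 on another, and one more, detected with DAC alone, was at least 2.52-fold higher.

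Chd1 to Chd9 encode proteins that join chromodomains, which bind methylated histones, to an SNF2 ATPase. Chd1l was grouped with them by its name. Of 10 genes 8 were measured, and past 2-fold stood 1 higher and 1 lower. Each is 12.5% of the 8, against 10.0% higher and 6.85% lower of all measured genes. The median of the 8 was 0.49. Chd6 (NM_173368) had −1.32 after DAC and −2.84 after PBS on the probe printed above, whose bases are drawn from a stretch of 16132 bases. Its difference of 1.52 stayed at or above 1.00 in the 8 other scalings and background settings, but its second measured probe gave −0.61. One more Chd6 probe, detected with DAC alone, was at least 2.99-fold higher. Chd1l (ALC1, chr3:97370688-97370747), a remodeller activated by poly(ADP-ribose) at DNA breaks, had −1.68 after DAC and −0.57 after PBS. Its difference was −1.11, and it ranged from −1.42 to −0.95 in the other settings. Chd1, which binds H3K4-methylated histones in transcribed genes, was also lower on the probe printed above. It had −1.87 after DAC and −0.98 after PBS, a difference of −0.89 that was past 2-fold in each of the 6 other scalings and within it in both background settings.

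The closest relative of Chd1 showed no single direction. Chd2 (chr7:80660613-80660672) had 0.08 after DAC and −0.78 after PBS, a difference of 0.87, with 1.21 and −0.81 on its other measured probes. The NuRD ATPase genes were both above 0: Chd3 (chr11:69156778-69156837) had −0.57 after DAC and −1.22 after PBS, a difference of 0.65. Chd4 (Mi-2β, chr6:125080458-125080517), which stem cells need for self-renewal in mouse, had 1.54 after DAC and 1.22 after PBS, a difference of 0.32. Their relative Chd5 was above background on neither array. Chd8 (chr14:52818160-52818219), a repressor of Wnt target genes, had −0.50 after DAC and −1.31 after PBS, a difference of 0.80. Chd7 (chr4:8793852-8793911), the gene of CHARGE syndrome, was above background on neither array. Chd9 (chr8:93578260-93578319) had 0.63 after DAC and 0.76 after PBS, a difference of −0.13. It kept its sign in the other scalings, of which those that move every difference down could not change it.

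INO80 exchanges the histone variant H2A.Z and acts at replication forks and breaks. All 5 genes were measured, and 1 passed 2-fold, on the higher side, against 10.0% of all measured genes. The median of the 5 was 0.60. The ATPase gene Ino80 (chr2:119198816-119198875) had −3.17 after DAC and −4.17 after PBS, a difference of 0.998, just inside 2-fold. The Ino80 probe printed above gave 1.44, while normexp correction brought the brighter probe to 0.20. Ino80e (chr7:133995108-133995167), an accessory subunit gene, had −1.60 after DAC and −2.77 after PBS, a difference of 1.18. This difference stayed past 2-fold in only 1 of the 8 other scalings and background settings, and normexp correction brought it to 0.70. A second Ino80e probe, detected with DAC alone, was at least 4.54-fold higher. Ino80d had a difference of 0.60 and Ino80c one of 0.17 that changed sign with the scaling. Ino80b was lower, at −0.71.

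The 3 other SNF2 genes were all above 0, with 2 past 2-fold. Of all measured genes, 51.4% lay above 0 and 10.0% were past 2-fold higher. Atrx (NM_009530, chrX:102995607-102995666), whose product deposits histone H3.3 in heterochromatin together with Daxx, had −0.21 after DAC and −2.10 after PBS. Its difference of 1.89 ranged from 1.52 to 1.81 in the other scalings and background settings. Its remaining probes gave 1.89 and, on the probe printed above, 0.58, so all 3 were higher. Smarcal1 (chr1:72679452-72679511), an annealing helicase that restarts stalled replication forks, had −2.96 after DAC and −4.19 after PBS, a difference of 1.23, or 0.46 with normexp correction. Its other probes were detected with DAC alone. The dimmer gave a bound of at least 2.57-fold higher, and the brighter stood 5.84-fold above its own undetected PBS signal. Smarcad1, a remodeller that keeps heterochromatin through replication (chr6:65065856-65065915), had −2.28 after DAC and −3.17 after PBS, a difference of 0.89.

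ARID proteins bind DNA through an AT-rich interaction domain. Outside BAF there were 6 ARID genes, all measured, and 3 of them passed 2-fold on the higher side, against 10.0% of all measured genes. The median of the 6 was 1.00. Arid5b (chr10:67555669-67555728), which works with the demethylase Phf2 and is a risk locus of human acute lymphoblastic leukaemia, had −1.60 after DAC and −4.01 after PBS. Its difference of 2.41 was the only one past 4-fold, where 1.87% of all genes lay, and its second probe gave 0.86. Normexp correction brought it to 1.29. Arid3b (chr9:57638549-57638608) had −2.38 after DAC and −4.27 after PBS, a difference of 1.89, and its other probes were above background on neither array. Arid5a (chr1:36377312-36377371), which also stabilises inflammatory mRNAs, had −2.40 after DAC and −3.81 after PBS, a difference of 1.42. With normexp correction Arid3b stood at 0.86 and Arid5a at 0.66, both within 2-fold.

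The remaining ARID genes differed less. Arid4b, a subunit gene of Sin3 histone deacetylase complexes, had 0.59 on its brightest probe and −0.55 on the other. Its relative Arid4a had −0.43 on a probe found on both arrays, while another, detected with DAC alone, was 7.89-fold above its own undetected PBS signal. Arid3c had 0.21, with a sign that changed with the scaling.

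Brd1, Brd2, Brd3 and Brd8, bromodomain genes placed in none of the groups above, stayed within 2-fold on their brightest probes. BET proteins bind acetylated histones and recruit elongation factors. Brd2 (chr17:34248982-34249041) had 0.75 after DAC and 0.29 after PBS, a difference of 0.45, and 0.004 on its second probe. Brd3 (chr2:27301106-27301165) had 0.08 after DAC and 0.32 after PBS, a difference of −0.24, with −0.25 on a second probe. A further Brd3 probe, detected with DAC alone, was 7.20-fold above its own undetected PBS signal, so the Brd3 probes disagreed. Brd1, a scaffold gene of histone acetyltransferase complexes, had 0.96. Brd8, a TIP60 complex gene, had −0.59.

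Probes of one gene often disagreed. Of the 46 genes, 29 rested on 1 measured probe and 17 had at least 2. In 9 of these 17 the measured probes shared a sign and in 8 they did not. The range over the probes of a gene had a median of 1.09 for the 17 genes, against 0.68 for the 4649 genes with at least 2 measured probes, of which 47.2% had probes of opposite sign. The measured probe nearest the 3′ end had a higher difference than the one nearest the 5′ end in 10 of the 17 and a lower one in 7. Among the 12 genes past 2-fold, 9 had a single measured probe, Atrx and Arid5b had probes of one sign, and Chd6 did not. Of the 93 probes, 10 (10.8%) reached detection with DAC alone and 1 with PBS alone, against 11.1% and 2.88% of all probes. These 10 belonged to 9 genes.

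**Figure D3:**
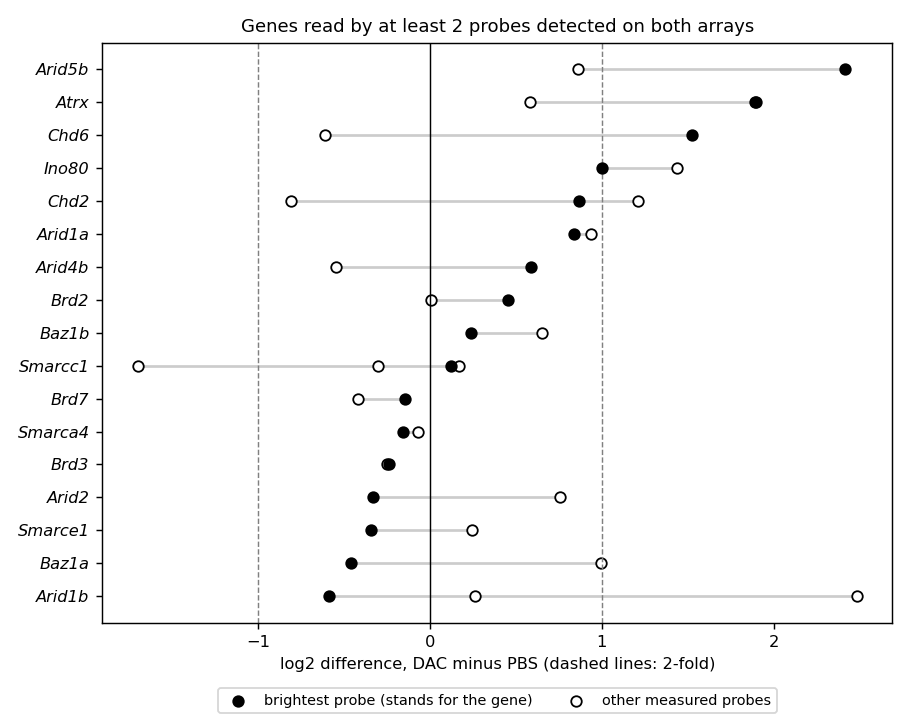
Log2 difference, DAC minus PBS (x axis), of each measured probe for the 17 genes with at least 2, with the brightest probe filled and the others open. Lines join the probes of a gene, and those of Arid1b, Chd6, Chd2 and Smarcc1 span the widest ranges and cross 0.

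Partners of these genes were read from a list of other remodeller subunits, SNF2 ATPases and bromodomain or ARID genes. Of 87 names 85 were on the array and 71 were measured, of which 12 (16.9%) passed 2-fold on the higher side and 3 (4.23%) on the lower, against 10.0% and 6.85% of all genes. The median difference was 0.15, against 0.02 over all genes. The 5 highest were Shprh, an SNF2-type ubiquitin ligase (2.01), the ATPase and bromodomain gene Atad2 (1.59), the NuRD gene Gatad2b (1.49), the TIP60 gene Epc2 (1.48) and the acetyltransferase gene Kat2a (1.42). Epc2 had probes of opposite sign. The INO80 gene Tfpt was past 2-fold on both of its probes, at 1.34 and 1.01. The lower genes were Trim33 (−1.63), a bromodomain ubiquitin ligase of TGF-β signalling, Brwd1 (−1.34, with probes of opposite sign) and the TIP60 gene Epc1 (−1.15). Of the 85 genes 7 were detected with DAC alone and 0 with PBS alone, against 9.53% and 2.96% of all genes, so the DAC count is near the background. Among these 7 was the BAF gene Gltscr1, by at least 4.05-fold. Normexp correction left 2 of the 71 past 2-fold higher and 3 lower, against 3.97% and 4.14% of all genes.

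**Figure D4:**
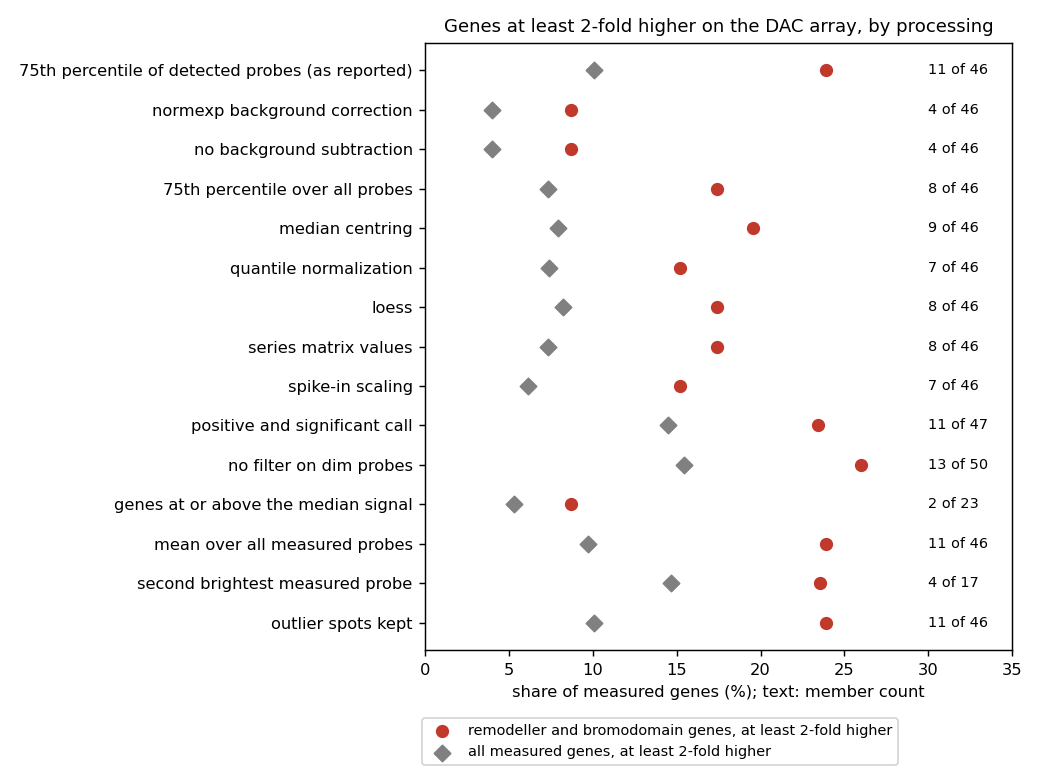
Share of measured genes at least 2-fold higher on the DAC array (x axis, percent) for chromatin remodeller and bromodomain genes (red circles) and all measured genes (grey diamonds), by processing, with the count of the former as text. The share of the chromatin genes runs from 8.70% to 26.0% and lies above that of all genes in each setting drawn. The settings share probes and are not independent.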

How the data were processed

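Total RNA from 1 DAC and 1 PBS sample was labelled with Cy3 and hybridised to 2 arrays of 1 slide, per the labels and the file headers. The authors' deposited intensity was extracted with Agilent Feature Extraction 10.7.3.1 (protocol GE1_107_Sep09), background-subtracted and detrended within the array, per the file headers. The deposited series matrix holds log2 values. Set against log2 intensity, its DAC minus PBS difference gave a slope of 1.00 (offset −0.60), which settles its scale and direction, while each probe's baseline is unknown.

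Spots called outliers were left out (1 of 55681 probes lost), and log2 intensity was reduced by a 75th percentile taken from 25404 probes (45.6%) that both arrays detected well above background. The brightest probe stood for a gene, which was measured if well above background on both arrays. A gene or probe on 1 array only got a bound against the higher of its own signal and the lowest detected signal there. Where its own signal was the higher, the value is a plain ratio and no lower bound. Spot SDs came from probes printed 10 times. Differences were counted at 2-fold, with no test at 1 array per group. The number of arrays limits the precision. The functions were tested on simulated data with the same noise at every signal level, so that test does not cover the larger error of dim genes. Python 3.11.15, R 4.3.3 and limma 3.58.1 (normexp, offset 50) were used. Gene names are those of the array files, and exon or UTR positions of probes were not determined.

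All members could be named; full values were given for those past 2-fold or found on 1 array, measured catalytic subunits, Brd2, Brd3, Brd9, Pbrm1 and the BAF Arid genes, and for the other list the differences of the 5 highest and the lowest past 2-fold. Tfpt and Gltscr1 were added after their values were seen. Of the counted genes, 1 member and 1 marker are not reported here by name or drawn. Members and lists were chosen with earlier results of these data known.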

Additional observations from a re-analysis of the deposited data

How the results depend on the processing

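Genes at least 2-fold higher on the DAC array numbered 11 as reported, 4 with normexp correction or no background subtraction (3.97% and 3.95% of all genes), 7 with quantile or spike-in scaling (7.39% and 6.14%), 2 of 23 once genes below the median signal were dropped (5.28% of all genes left) and 4 of 17 on the second brightest measured probe (14.7%). Genes at least 2-fold lower numbered 1 as reported, 0 with either background setting, 3 with quantile or spike-in scaling, and 2 with the 75th percentile over all probes, median centring, loess, the series matrix values, the positive and significant call or no filter on dim probes. The share of all genes past 2-fold lower moved too: it was 6.85% as reported, 4.14% with normexp and 4.04% without background subtraction, 10.1% with quantile and 12.9% with spike-in scaling, and in the order of the 6 settings with 2 genes 10.2%, 9.32%, 8.47%, 10.1%, 8.65% and 8.74%. The median difference of 0.46 became 0.28 with either background setting, 0.25 with the 75th percentile over all probes and with the series matrix values, 0.30 with median centring, 0.15 with spike-in scaling and 0.65 on the second brightest probe. Averaging probes with median centring, a pairing chosen after seeing the data, gave 2 lower genes (8.31% of all) and a median of 0.29. The median of all genes itself shifted by −0.20 with the 75th percentile over all probes and the series matrix values, −0.16 with median centring, −0.11 with quantile normalization and −0.31 with spike-in scaling, which rested on 1 of 10 spike-in probes. Relative to all genes the median stayed between 0.35 and 0.56.

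In the list of partner genes, 12 of 71 were at least 2-fold higher as reported (10.0% of all genes). The count became 2 of 71 with normexp correction (3.97%) and without background subtraction (3.95%). It became 2 of 47 at or above the median signal (5.28%), 20 of 85 with no filter (15.4%) and 5 of 31 on the second brightest probe (14.7%). Of the 71, 3 were at least 2-fold lower as reported (6.85% of all genes). The count became 5 with the 75th percentile over all probes (10.2%) and the series matrix values (10.1%), and 6 with spike-in scaling (12.9%). It became 1 of 47 at or above the median signal (4.59%) and 1 of 71 with probes averaged (6.01%). All 12 genes past 2-fold kept their sign in 8 of 8 other scalings and background settings, and 4 of the 12 stayed past 2-fold in each. The 75th percentile over all probes, median centring, the series matrix values and spike-in scaling move every difference by a constant, −0.16 to −0.31. The sign of a gene past 2-fold could not change in them. Chd6 was reversed on its second brightest probe, at −0.61. The cause of these changes was not tested, apart from the fewer genes left at or above the median signal and on a second probe. Of 32 genes above 0, 26 kept their sign in the 6 other scalings, as did all 14 below 0. Constant shifts are all downward and could not turn the 14 positive, so the 26 and the 14 are not comparable. No paired analysis was possible with 1 array per group.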

Other observations

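Across the 46 measured chromatin genes, which are not independent replicates, the log2 difference had a Spearman correlation of −0.28 with mean signal, against −0.15 across all 18222 measured genes. With the GC content of the probe it was 0.03, against −0.03 across all genes.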
